A study of Homo sapiens with 12 samples.

Results

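The expression of 10 genes of the TGF-beta pathway was examined in SKBR3 and MDA-MB-453 cells, 2 established breast cancer cell lines of the HER2 subtype, with and without TWEAK. The genes were picked by name for their roles, with earlier results of these data known, and all 10 were found among the 62696 gene identifiers counted: the ligands TGFB1, TGFB2 and TGFB3, the receptors TGFBR1 and TGFBR2, the activators THBS1 and FURIN, and the signal and feedback genes SMAD3, SMAD7 and SKIL. TWEAK is a cytokine of the TNF superfamily that binds the receptor Fn14, encoded by TNFRSF12A. All cells were seeded in serum and starved in optimem for 8 h. TWEAK-treated cells then received the ligand at 10 ng/ml for 48 h, with a fresh addition after 24 h. The culture description on the untreated samples is worded as for TWEAK, and the groups follow the treatment label. Polyadenylated RNA was sequenced from 3 untreated and 3 TWEAK-treated replicates of each line, 12 libraries in all. Both are cultures of a single tumour line, without stroma.

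TGF-beta ligands are secreted as latent precursors. Proprotein convertases such as furin cleave the precursor within the cell, and the mature ligand stays wrapped in its propeptide until integrins, proteases or thrombospondin-1 release it. The free ligand binds the type II receptor TGFBR2, which phosphorylates the type I receptor TGFBR1, and the complex then phosphorylates SMAD2 and SMAD3. These enter the nucleus with SMAD4 and switch target genes on or off, among them SMAD7, SKIL and PMEPA1, which restrain the signal. In mammary epithelium the pathway is known for halting the cell cycle in normal cells and for matrix production and invasive behaviour in tumours.

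On hg38, with gene models from GENCODE 44, the ligand genes lie at chr19:41301587-41353922 on the minus strand (TGFB1, ENSG00000105329), chr1:218345336-218444619 on the plus strand (TGFB2, ENSG00000092969) and chr14:75958097-75983011 on the minus strand (TGFB3, ENSG00000119699). The receptor genes lie on the plus strand at chr9:99104038-99154192 (TGFBR1, ENSG00000106799) and chr3:30606601-30694142 (TGFBR2, ENSG00000163513). Both activator genes are on the plus strand of chromosome 15, THBS1 at chr15:39581079-39599466 (ENSG00000137801) and FURIN at chr15:90868588-90883564 (ENSG00000140564), and SMAD3 is between them at chr15:67063763-67195173 (ENSG00000166949). SMAD7 lies at chr18:48919853-48950965 on the minus strand (ENSG00000101665) and SKIL at chr3:170357342-170396835 on the plus strand (ENSG00000136603). Other genes run across some of these exons. TGFB2 shared 11.6% of its exonic bases with TGFB2-AS1 on the opposite strand and 22.7% with TGFB2-OT1 on its own strand, THBS1 shared 7.58% with FSIP1 and THBS1-AS1, and TGFB1 shared 6.59% with HNRNPUL1. The counting rule for strand is not stated, so reads in these stretches cannot be assigned with certainty. TGFB2-OT1 had a count of 0 in every library, TGFB2-AS1 had at most 3 reads in any library, and HNRNPUL1 was at 363 CPM ± 5.50 (SD, n = 3) in untreated SKBR3.

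The 250 bases before the RefSeq start site (GRCh38.p14) are given for the 4 members whose level shifted most with TWEAK in SKBR3, to show what lies upstream of THBS1 and FURIN, which fell in both lines, and of TGFBR1 and TGFB2, which were called in SKBR3. Each is written 5′ to 3′ on the strand of the gene, and capitals mark letters that matched a searched motif.
THBS1: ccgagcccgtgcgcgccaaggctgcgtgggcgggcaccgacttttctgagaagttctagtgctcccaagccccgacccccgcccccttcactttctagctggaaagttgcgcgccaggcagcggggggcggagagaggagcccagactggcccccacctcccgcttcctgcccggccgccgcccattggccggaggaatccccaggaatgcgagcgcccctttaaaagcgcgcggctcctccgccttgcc
FURIN: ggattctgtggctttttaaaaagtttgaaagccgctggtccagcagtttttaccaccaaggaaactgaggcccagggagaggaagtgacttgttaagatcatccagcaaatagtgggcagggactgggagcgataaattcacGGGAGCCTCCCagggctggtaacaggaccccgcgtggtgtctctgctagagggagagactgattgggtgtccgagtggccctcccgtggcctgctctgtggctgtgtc
TGFBR1: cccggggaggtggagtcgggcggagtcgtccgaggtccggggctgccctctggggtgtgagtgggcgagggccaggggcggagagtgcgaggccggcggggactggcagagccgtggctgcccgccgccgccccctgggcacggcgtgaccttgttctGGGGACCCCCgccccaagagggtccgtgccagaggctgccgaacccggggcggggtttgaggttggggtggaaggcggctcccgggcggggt
TGFB2: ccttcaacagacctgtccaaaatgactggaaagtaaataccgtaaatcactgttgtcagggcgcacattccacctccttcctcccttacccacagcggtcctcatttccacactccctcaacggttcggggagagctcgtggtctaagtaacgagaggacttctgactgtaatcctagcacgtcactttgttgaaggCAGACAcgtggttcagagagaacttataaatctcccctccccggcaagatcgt
The windows are chr15:39580829-39581078, chr15:90872604-90872853, chr9:99105564-99105813 and chr1:218345086-218345335. The FURIN start lies 4266 bases inside the GENCODE gene and the TGFBR1 start 1776 bases inside it, so other start sites exist upstream of these windows. The TGFB2 window overlaps exons of the non-coding antisense gene TGFB2-AS1. Both strands were searched for GTCTAGAC (the SMAD palindrome), CAGACA (a SMAD box), TGANTCA (AP-1) and the 10-base NF-κB consensus. Among the windows of all 10 genes, the SMAD box was found only in TGFB2 at positions -53 to -48 from the start site, and 13.6% of all 35116 RefSeq windows of this length held it. The NF-κB consensus was found in 3 windows, TGFB1 (-154 to -145), TGFBR1 (-92 to -83) and FURIN, where 2 overlapping matches on opposite strands span -108 to -98, against 9.96% of all windows. The SMAD palindrome and the AP-1 letters were in none of the 10 windows, against 0.182% and 6.57% of all windows. The RefSeq start sites of SMAD3, SMAD7, TGFB3 and SKIL lie 102768, 8158, 1016 and 373 bases inside the GENCODE genes. Sequence before the outermost starts of these genes, FURIN and TGFBR1 was not searched, so an absence holds for these windows only. The THBS1 window held no match.

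Total counts ranged from 24842722 to 28647209 per library in SKBR3 and from 24773003 to 35208304 in MDA-MB-453. Levels are TMM-normalised CPM within a line, that is, the count of a gene scaled to a common library size, and a gene is described as rising or falling where edgeR's adjusted p was at most 0.1, the threshold named in the study's methods. NFKB2, a gene that Fn14 signalling is known to induce, was higher with TWEAK by a log2 fold change of 1.79 (SKBR3, adjusted p = 9.34e-08) and 1.67 (MDA-MB-453, adjusted p = 3.01e-10). Both lines expressed ERBB2, which encodes HER2, at 7260 CPM ± 268 and 932 CPM ± 17.5 (SD, n = 3, untreated). Of 7 fibroblast markers, COL1A1 alone carried nearly all of the summed level, which was 17.3 to 20.1 CPM in untreated SKBR3 and 122 to 128 CPM in untreated MDA-MB-453. The summed level of 5 leukocyte markers was at most 0.506 CPM in every library. The TWEAK library numbered 2 stood apart from its partners in both lines, with a chi-square per degree of freedom of 18.7 and 21.1 in SKBR3 (1.70 to 5.20 for the other pairs of that line) and of 9.20 and 4.85 in MDA-MB-453 (1.99 to 2.67). In SKBR3 it was the lowest of the 3 TWEAK libraries for 7 of the 10 members, and in MDA-MB-453 the highest for 8 of the 10. In bulk RNA, fewer cells that express a gene and less RNA per cell cannot be told apart.

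TWEAK lowered both activators and the type I receptor in SKBR3 and raised 1 ligand and SMAD3. FURIN fell to 0.622 times its untreated level, THBS1 to 0.691 times and TGFBR1 to 0.725 times, while TGFB2 rose 1.49-fold and SMAD3 1.19-fold. In MDA-MB-453 only FURIN and THBS1 were called, at 0.846 and 0.847 times the untreated level. All 10 members were tested in SKBR3, where 2 were called higher and 3 lower, against 6.60% and 3.82% of the 15661 genes tested. Without TWEAK library 2, 1589 genes were higher and 1191 lower in SKBR3 in place of 1034 and 599. Leaving out single libraries gave 0 to 2 members higher and 3 to 4 lower. The 3 replicates of each group did not overlap for 6 of the 10 members, against 26.7% of genes. In MDA-MB-453, 8 members passed the filter on low counts, 2 were called lower and 0 higher, against 0.208% and 1.29% of 14929 genes. Those shares moved with 1 library: without TWEAK library 2, 1098 genes were lower and 1003 higher in place of 31 and 192, with 2 members lower and 0 higher as before. At an unadjusted p under 0.05 the same count was 2 lower and 0 higher, and DESeq2 also called 2 lower and 0 higher. Here and below, shares over all genes are those at edgeR's adjusted p. Counts at an unadjusted p or by DESeq2 have no share beside them and are not read as an excess. The groups did not overlap for 3 of the 8 members tested in MDA-MB-453 (SMAD3 higher, THBS1 and FURIN lower), against 15.0% of genes tested. For 1 gene at a time, exact permutation of 3 against 3 libraries gives no p under 0.1, so all calls rest on the fit across genes.

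**Figure D1:**
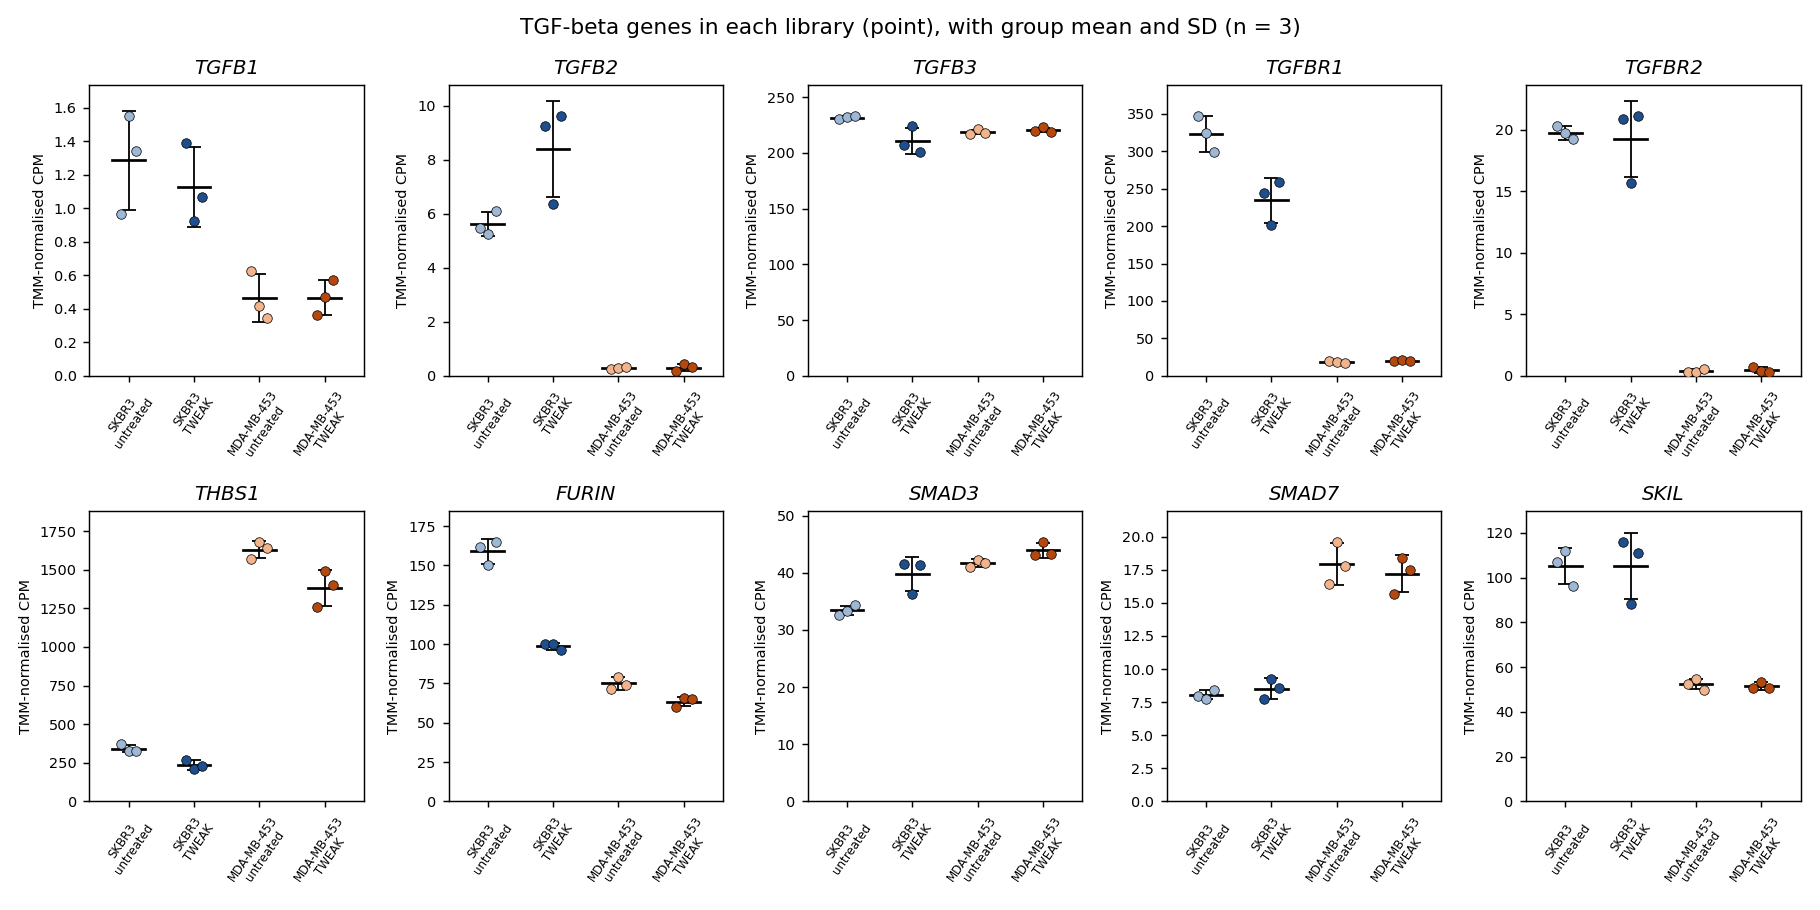
Level of each of the 10 genes as TMM-normalised CPM (vertical axis from 0, a scale for each gene) in the 4 groups. Points are libraries, thick bars are means and thin bars are SD (n = 3). The FURIN points of TWEAK-treated SKBR3 lie between 96.2 and 100 CPM, below the untreated points at 150 to 165, and TGFB2 and TGFBR2 are under 1 CPM in all MDA-MB-453 libraries.

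Furin, a proprotein convertase that cuts the TGF-beta precursors and many other proproteins, changed most of the 10 members with all SKBR3 libraries kept. Without TWEAK library 2 the log2 fold change of TGFB2 was larger (0.75), whereas FURIN ranged from -0.72 to -0.65 when single libraries were left out. Untreated SKBR3 libraries held FURIN at 162, 150 and 165 CPM, and TWEAK-treated libraries at 100, 100 and 96.2 CPM. The groups were well separated and the treated libraries nearly coincided. The log2 fold change was -0.69 (SE 0.0606, 95% interval -0.82 to -0.55, adjusted p = 3.37e-05). MDA-MB-453 started lower, at 71.6, 79.4 and 74.3 CPM, and held 60, 65.6 and 64.9 CPM after TWEAK. The groups again did not overlap, with a log2 fold change of -0.24 (SE 0.0496, 95% interval -0.35 to -0.13, adjusted p = 0.0286). This call was lost when any of 3 libraries was left out (untreated 2, untreated 3 or TWEAK 3), with adjusted p up to 0.255, whereas the SKBR3 call held under all 15 alternatives. The fall was smaller in MDA-MB-453 by 0.44 on the log2 scale (SE 0.0793, adjusted p = 0.00386 for the interaction of line and treatment). Among all 17201 genes tested for that interaction, 3.37% were called, and 2 of the 10 members were, FURIN and TGFBR1.

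Thrombospondin-1, a matricellular glycoprotein that can release TGF-beta from its latent complex, was the member with the highest level per length in MDA-MB-453. SKBR3 libraries held THBS1 at 369, 329 and 329 CPM untreated and at 270, 211 and 229 CPM with TWEAK. The lowest untreated library was above the highest treated one. The log2 fold change was -0.53 (SE 0.0891, 95% interval -0.73 to -0.34, adjusted p = 0.00322), and it was called under all 15 alternatives, with adjusted p up to 0.0246. In MDA-MB-453 the level was 1570, 1680 and 1640 CPM untreated and 1260, 1490 and 1400 CPM with TWEAK. These groups did not overlap either, and the log2 fold change was -0.24 (SE 0.0513, 95% interval -0.35 to -0.13, adjusted p = 0.0365). The call was lost without untreated 2, untreated 3 or TWEAK 3, and in a fit of all 12 libraries together (adjusted p = 0.448). The change differed between lines by 0.29 on the log2 scale (95% interval 0.05 to 0.52), which was not called (adjusted p = 0.286). It was called in 5 of 21 alternatives: without a filter (adjusted p = 0.00426), with the replicate block (0.085), with GC and length offsets (0.0594, or 0.0103 with the block) and without SKBR3 TWEAK library 1 (0.0429).

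**Figure D2:**
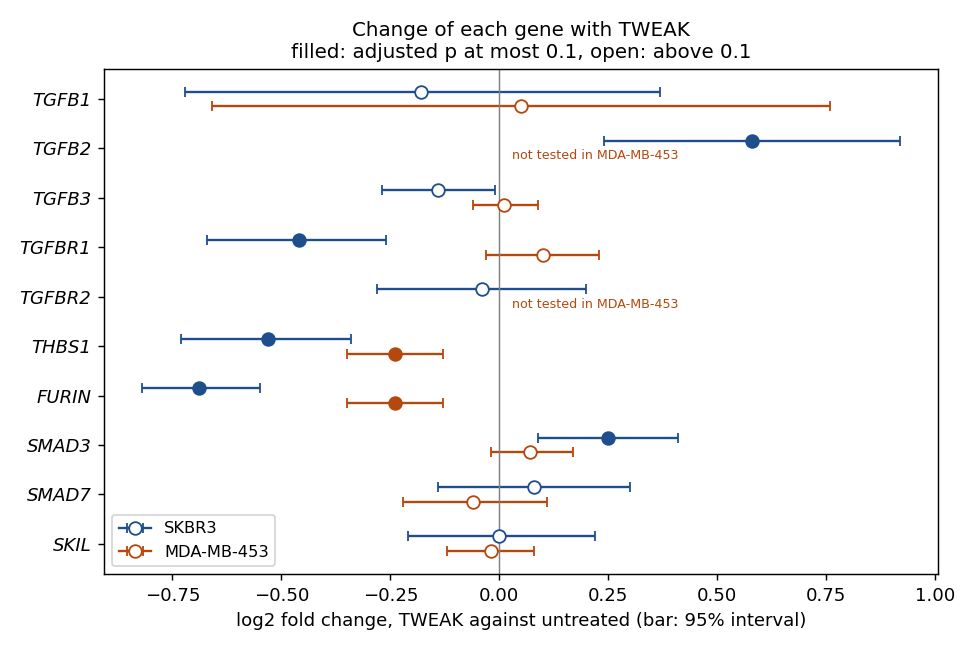
Log2 fold change of TWEAK against untreated (horizontal axis) for each gene in SKBR3 (blue) and MDA-MB-453 (orange), with 95% intervals from the edgeR fit. Filled points passed an adjusted p of 0.1: FURIN and THBS1 are below 0 in both lines, TGFBR1 is below 0 in SKBR3, and TGFB2 and SMAD3 are above 0 in SKBR3.

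Of the receptors, TGFBR1 fell in SKBR3 and TGFBR2 was called in neither line. TGFBR1, the type I receptor kinase, was at 347, 325 and 299 CPM in untreated SKBR3 and at 244, 201 and 259 CPM with TWEAK. All treated libraries were below all untreated ones, and the log2 fold change was -0.46 (SE 0.0932, 95% interval -0.67 to -0.26, adjusted p = 0.0102). It was called under all 15 alternatives, and without TWEAK library 2 it was -0.36. In MDA-MB-453, TGFBR1 was at 19.4, 18.3 and 17.7 CPM untreated and at 19.7, 20.4 and 19.3 CPM with TWEAK. There the groups overlapped, with a log2 fold change of 0.10 (95% interval -0.03 to 0.23, adjusted p = 0.583). The difference between lines was 0.56 on the log2 scale (SE 0.122, adjusted p = 0.0173) and was called under all 21 alternatives tried for it. TGFBR2, the type II receptor that binds the ligand, was at 20.3, 19.7 and 19.2 CPM in untreated SKBR3 and at 20.9, 15.7 and 21.1 CPM with TWEAK. Only TWEAK library 2 was set apart, and the log2 fold change of -0.04 had an interval of -0.28 to 0.20. In MDA-MB-453 TGFBR2 had 8, 7 and 15 reads untreated and 18, 9 and 10 reads with TWEAK, too few to be tested. Per kilobase of exon, TGFBR1 exceeded TGFBR2 by 14.1 ± 0.655 times in untreated SKBR3 and by 10.5 ± 0.450 times with TWEAK (SD, n = 3), and the ranges of 13.3 to 14.6 and 10 to 10.9 did not overlap.

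TGFB3 held nearly all of the ligand signal per length. It was at 230, 232 and 233 CPM in untreated SKBR3 and at 207, 224 and 201 CPM with TWEAK, and in MDA-MB-453 at 217, 221 and 218 CPM untreated and 220, 223 and 219 CPM with TWEAK. In SKBR3 the treated libraries all lay below the untreated ones, yet the log2 fold change of -0.14 (95% interval -0.27 to -0.01) was not called (adjusted p = 0.223). Without TWEAK library 2 it was -0.18 and was called (adjusted p = 0.0059), as it was in the fit of all 12 libraries (-0.13, adjusted p = 0.0695) and with GC and length offsets (-0.15, adjusted p = 0.0445, or 0.0964 with the replicate block as well). In MDA-MB-453 the groups overlapped and the log2 fold change of 0.01 had an interval of -0.06 to 0.09.

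TGFB2, far lower per length, rose in SKBR3. Its libraries were at 5.48, 5.27 and 6.12 CPM untreated and at 9.24, 6.35 and 9.62 CPM with TWEAK. TWEAK library 2 was only just above the highest untreated library. The log2 fold change was 0.58 (SE 0.154, 95% interval 0.24 to 0.92, adjusted p = 0.0455). The call was lost when untreated 1, untreated 2, TWEAK 1 or TWEAK 3 was left out (adjusted p up to 0.184), and without TWEAK library 2 the value was 0.75 (adjusted p = 6.85e-06). In MDA-MB-453 TGFB2 had 6, 8 and 8 reads untreated and 4, 11 and 11 reads with TWEAK and was not tested.

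TGFB1, the isoform most studied in tumours, was close to the limit of what these libraries can resolve. It had 28, 39 and 34 reads in untreated SKBR3 and 36, 24 and 27 reads with TWEAK. MDA-MB-453 libraries held 16, 11 and 9 reads untreated and 9, 12 and 20 reads with TWEAK. The groups overlapped in both lines, and the 95% intervals of the log2 fold change, -0.72 to 0.37 and -0.66 to 0.76, span both signs, so a change within them was not detectable at this depth. Per kilobase of exon, TGFB3 made up 97.1% ± 0.218 of the summed level of the 3 ligands in untreated SKBR3 and 95.8% ± 0.987 with TWEAK (SD, n = 3). TGFB2 made up 2.03% ± 0.148 and 3.33% ± 0.837, and its lowest treated library (2.38%) was above its highest untreated one (2.20%). In untreated MDA-MB-453 the share of TGFB3 was 99.6% ± 0.0914.

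Of the intracellular members, SMAD3 was called in SKBR3, and the difference between lines in its change (-0.18 on the log2 scale) was not called (adjusted p = 0.448), except without SKBR3 TWEAK library 2 (-0.23, adjusted p = 0.073) or without that library of both lines (-0.26, adjusted p = 0.027). SMAD3, which carries the receptor signal to the nucleus, was at 32.6, 33.3 and 34.3 CPM in untreated SKBR3 and at 41.6, 36.3 and 41.3 CPM with TWEAK. The groups did not overlap, and the log2 fold change was 0.25 (SE 0.0740, 95% interval 0.09 to 0.41, adjusted p = 0.0716). This is the highest adjusted p among the 5 members called in SKBR3. The call was lost with the replicate block, at a threshold of 0.05 and without any single library other than TWEAK 2 (adjusted p up to 0.275). In MDA-MB-453 SMAD3 was at 41, 42.3 and 41.7 CPM untreated and at 43.1, 45.4 and 43.2 CPM with TWEAK, without overlap, and the log2 fold change of 0.07 (95% interval -0.02 to 0.17) was not called (adjusted p = 0.584).

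The inhibitory SMAD7, which blocks and degrades the type I receptor, was at 7.96, 7.77 and 8.45 CPM in untreated SKBR3 and at 7.7, 9.28 and 8.54 CPM with TWEAK. Its groups overlapped in both lines, with log2 fold changes of 0.08 (95% interval -0.14 to 0.30) and -0.06 (95% interval -0.22 to 0.11). SKIL, which encodes the co-repressor SnoN, was at 107, 112 and 96.4 CPM in untreated SKBR3 and at 116, 88.4 and 111 CPM with TWEAK. Its log2 fold change was 0.00 (95% interval -0.21 to 0.22) in SKBR3 and -0.02 (95% interval -0.12 to 0.08) in MDA-MB-453, again with overlapping groups.

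**Figure D3:**
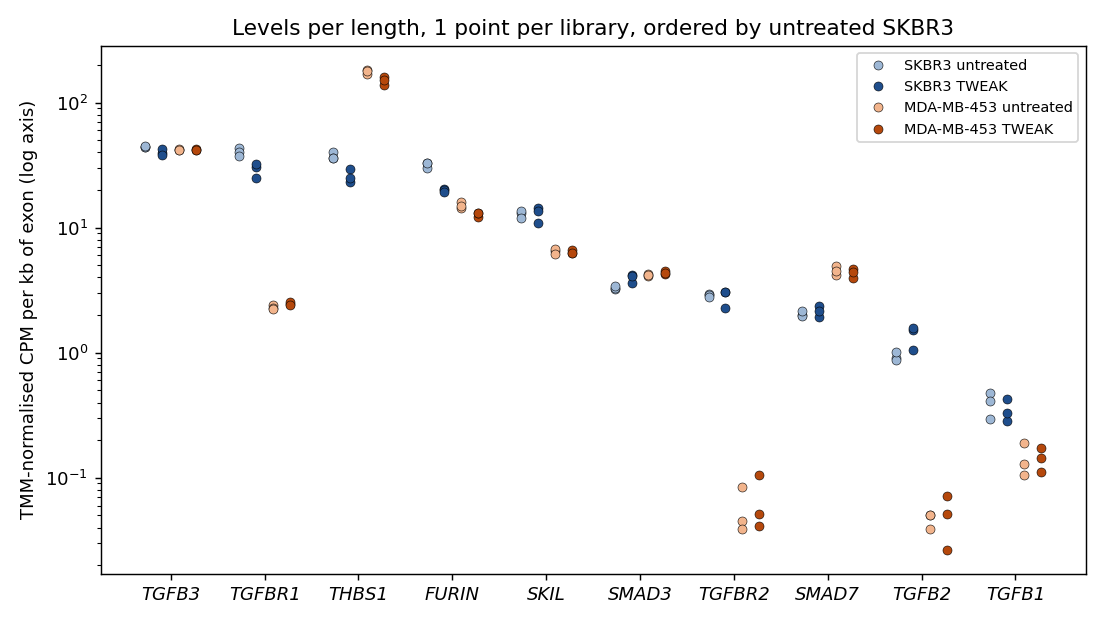
Level of each gene per kilobase of exon (TMM-normalised CPM per kb, log axis), 1 point per library, in the order of the means in untreated SKBR3. TGFB3 is near 40 CPM per kb in all 4 groups, THBS1 is highest in MDA-MB-453, and TGFBR2 and TGFB2 drop to about 0.05 CPM per kb in untreated MDA-MB-453.

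Levels of different genes can be compared only per length, and on that scale the untreated lines ranked the members differently. In untreated SKBR3 TGFB3 led with 44.4 CPM per kb ± 0.327 (SD, n = 3), followed by TGFBR1 (40.5 ± 3.01), THBS1 (37.4 ± 2.47), FURIN (32.1 ± 1.52) and SKIL (12.9 ± 0.957). SMAD3, TGFBR2 and SMAD7 were at 3.33, 2.88 and 2.04 CPM per kb, TGFB2 at 0.93 and TGFB1 at 0.394. Of these neighbours, only the ranges of TGFBR1 and THBS1 overlapped. TWEAK left the order as it was, although the ranges of TGFBR2 and SMAD7 then overlapped as well. In untreated MDA-MB-453 THBS1 led with 178 CPM per kb ± 6.03, TGFB3 followed with 41.8 ± 0.408 and FURIN with 15.1 ± 0.804. SKIL, SMAD7, SMAD3 and TGFBR1 were at 6.45, 4.54, 4.16 and 2.31 CPM per kb, and TGFB1, TGFBR2 and TGFB2 were at 0.142, 0.0562 and 0.0466. There the ranges of SMAD7 and SMAD3 overlapped, as did those of TGFBR2 and TGFB2. With TWEAK, SMAD3 and SMAD7 exchanged places, still with overlapping ranges.

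The untreated lines differed in all 10 members, against 87.2% of 16315 genes called between them, so the call itself sets no member apart and the sizes are what is shown. TGFBR2 was at 0.018 times its SKBR3 level in MDA-MB-453 (log2 fold change -5.80, SE 0.148), TGFB2 at 0.0466 times (-4.42, SE 0.207) and TGFBR1 at 0.0521 times (-4.26, SE 0.0570). In untreated MDA-MB-453 TGFB1 had at most 16 reads, TGFBR2 at most 15 and TGFB2 at most 8. All of these passed the filter only through SKBR3, so their ratios are imprecise and their calls carry no weight of their own. The log2 difference of MDA-MB-453 from SKBR3 was -1.58 for TGFB1, -1.22 for FURIN, -1.13 for SKIL and -0.22 for TGFB3. THBS1 was 4.34-fold higher, SMAD7 2.03-fold and SMAD3 1.14-fold. Each line is 1 genotype, and line and culture cannot be told apart. The untreated libraries are shared with the TWEAK comparisons, so these results are not independent of them.

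Genes that act around the members were taken from 6 lists of 102 genes. In SKBR3, 81 of them were tested, 24 were higher and 5 lower with TWEAK, and their median log2 fold change was 0.054, beside -0.007 over all genes, of which 6.60% rose and 3.82% fell. Of the 24, 3 had fewer than 10 reads in every untreated library (MMP2, THBS4 and INHBA), which leaves 21. Leaving out single SKBR3 libraries gave 20 to 27 of the list genes higher and 1 to 9 lower. In MDA-MB-453, 64 were tested, 4 were higher and 0 lower, and the median was -0.009, beside 0.002 over all genes, of which 1.29% rose and 0.208% fell. Unadjusted, 5 were higher and 11 lower there at p under 0.05, and DESeq2 called 3 higher and 0 lower. The 1.29% and 0.208% are not the shares for either of these settings. Without TWEAK library 2, 10 list genes were called lower, and over all genes 1098 were lower in place of 31. The interaction of line and treatment was called for 12 of 86 tested genes, 2 higher and 10 lower in MDA-MB-453 relative to SKBR3, against 3.37% of all genes.

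Among genes of latency, activation and ligand processing, 6 of 16 tested rose and 1 fell in SKBR3, against 6.60% and 3.82% of all genes, and their median log2 fold change was 0.199. ITGB8, the beta subunit of an integrin that activates latent TGF-beta, was at 1.10, 0.753 and 0.79 CPM untreated and at 7.12, 4.27 and 5.33 CPM with TWEAK (log2 fold change 2.64, SE 0.239, adjusted p = 4.05e-05). Its partner ITGAV rose by 0.61 (adjusted p = 0.0116), and ITGB6, a further beta subunit of activating integrins, by 1.03 (adjusted p = 7.85e-06). MMP9, a gelatinase that can cleave the latent complex, was at 3.21, 2.78 and 4.34 CPM untreated and at 20.9, 22.9 and 20.1 CPM with TWEAK (log2 fold change 2.63, SE 0.135, adjusted p = 5.11e-07). Of other integrin beta subunits on the list, ITGB5 fell (-0.19, adjusted p = 0.0607) and ITGB1 was not called (-0.02). ITGB8, ITGAV, ITGB6 and MMP9 thus rose while ITGB5, THBS1 and FURIN fell in the same libraries. MMP2 had 3, 5 and 7 reads untreated and 20, 31 and 22 reads with TWEAK. THBS4, a thrombospondin, had 3 reads untreated and 36 with TWEAK over the 3 libraries of each group, a ratio of 12.4 with a 95% counting interval of 3.91 to 62.8. Both are among the 6 called, but they passed the filter on low counts through the TWEAK libraries alone, so their calls carry no weight of their own. In MDA-MB-453, 0 of 11 tested genes of this list were called, a count near the share over all genes (1.29% higher and 0.208% lower). There 0 passed an unadjusted p of 0.05 and DESeq2 called 0. ITGB8, MMP9, MMP2 and THBS4 had at most 9 reads in any library of that line.

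**Figure D4:**
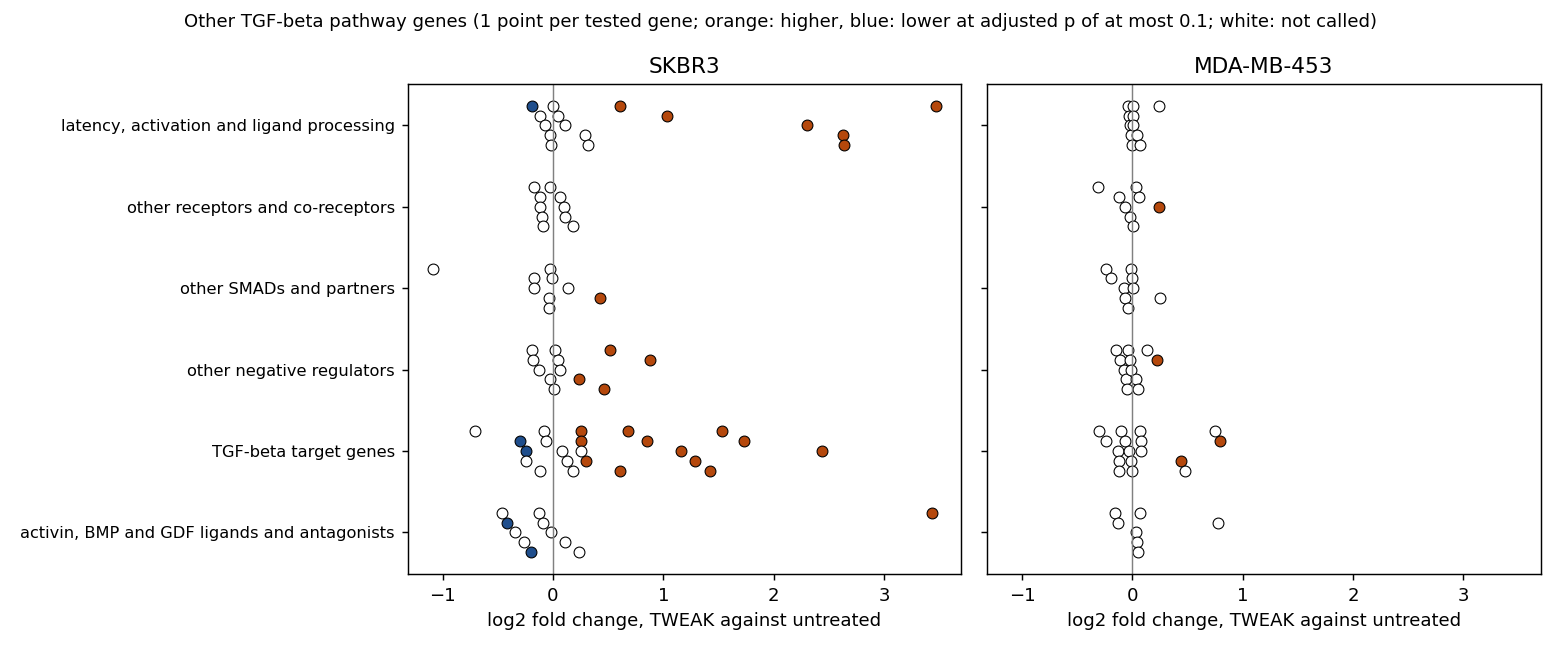
Log2 fold change of TWEAK against untreated (horizontal axis) for every tested gene of the 6 lists in SKBR3 (left) and MDA-MB-453 (right), 1 point per gene. Orange points were called higher and blue points lower; in SKBR3 the target gene list holds 12 orange points and the receptor list none.

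Of 23 tested genes known as TGF-beta targets, 12 rose and 2 fell in SKBR3, against 6.60% and 3.82% of all genes, and the median log2 fold change was 0.250. Many of these genes also answer to other signals, and the list does not measure TGF-beta activity. The list was not split by whether TGF-beta switches a gene on or off, so its counts and median have no single direction. The basement membrane collagen chains COL4A1 and COL4A2 rose by 2.44 and 1.73 (adjusted p = 7.54e-07 and 7.69e-07). CDKN2B, which encodes the cell cycle inhibitor p15, rose from 12.2, 11.8 and 12.8 CPM to 35.2, 30 and 33 CPM (log2 fold change 1.42, adjusted p = 1.51e-06). Groups did not overlap for any of these 3 genes. The endothelial marker CDH5 moved with them, from 1.66 CPM ± 0.160 to 4.02 CPM ± 0.725, and the summed level of 4 endothelial markers went from 3.77 to 4.93 CPM untreated to 6.12 to 7.35 CPM with TWEAK; the rise is that of CDH5 alone, since VWF was at 2.74 CPM untreated and 2.55 CPM with TWEAK and the other 2 markers had at most 3 reads in every library. Their part in the result was not tested. ID2, an inhibitor of basic helix-loop-helix factors, fell by 0.30 (adjusted p = 0.018) and ADAM19 by 0.24 (adjusted p = 0.0954). Of the other ID genes on the list, ID3 rose by 0.61 (adjusted p = 1.87e-04) and ID1 was not called (-0.71, adjusted p = 0.106). DESeq2 called 12 targets higher and 1 lower in SKBR3. In MDA-MB-453, 2 of 17 tested targets rose and 0 fell, against 1.29% and 0.208% of all genes at edgeR's adjusted p. The 2 were FN1 (fibronectin), by 0.79 (adjusted p = 0.00797), and JUNB, by 0.44 (adjusted p = 8.47e-05). At an unadjusted p under 0.05, 3 targets were higher and 4 lower, to which those shares do not apply. DESeq2 called 2 higher and 0 lower. FN1 had 66, 77 and 68 reads there untreated and 96, 134 and 170 reads with TWEAK, and its call was lost in the fit of all 12 libraries (adjusted p = 0.148).

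**Figure D5:**
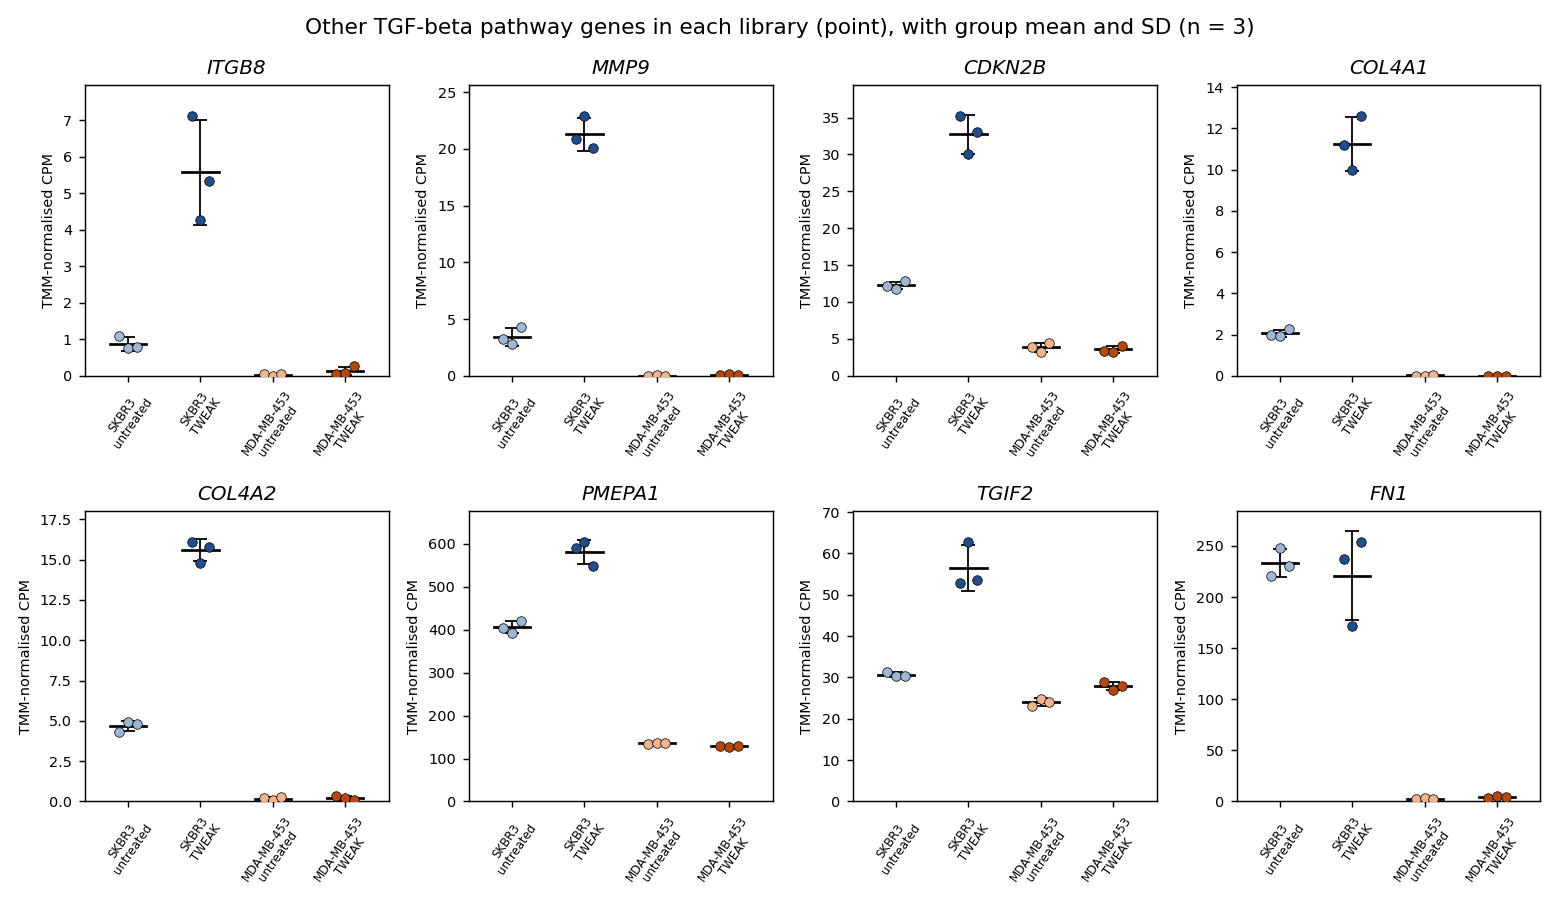
Level of 8 other pathway genes as TMM-normalised CPM (vertical axis from 0, a scale for each gene), with points for libraries and bars for mean and SD (n = 3). In SKBR3 all but FN1 are higher in every TWEAK library than in every untreated one, and in MDA-MB-453 the levels of ITGB8, MMP9 and COL4A1 lie near 0.

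Negative regulators other than SMAD7 and SKIL moved in part. In SKBR3, 4 of 12 rose and 0 fell, against 6.60% and 3.82% of all genes. At an unadjusted p under 0.05, 4 were higher and 2 lower, and DESeq2 called 4 higher and 0 lower. TGIF2, a co-repressor of SMADs, rose from 31.3, 30.4 and 30.3 CPM to 52.9, 62.8 and 53.5 CPM (log2 fold change 0.88, SE 0.0795, adjusted p = 4.05e-05). PMEPA1, which holds SMAD2 and SMAD3 back from the receptor, rose from 404, 393 and 420 CPM to 589, 604 and 548 CPM (log2 fold change 0.52, SE 0.0598, adjusted p = 2.53e-04). PPP1R15A and the ubiquitin ligase gene SMURF1 rose by 0.46 and 0.24 (adjusted p = 0.0126 and 0.0525). The SMURF1 call was lost with the replicate block and at a threshold of 0.05. It was also lost without 4 of the 6 libraries in turn (untreated 1, untreated 2, TWEAK 1 or TWEAK 3). In MDA-MB-453, 1 of 12 rose and 0 fell, against 1.29% and 0.208% of all genes. At an unadjusted p under 0.05, 1 was higher and 3 lower there, and DESeq2 called 0. The gene called was TGIF2, which rose by 0.22 (adjusted p = 0.0818). Its call was lost in DESeq2 (adjusted p = 0.22), in the fit of all 12 libraries (0.376), at a threshold of 0.05 and without any single library other than TWEAK 2. TGIF2 and JUNB were the 2 genes of the lists called higher in both lines.

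Receptors other than TGFBR1 and TGFBR2 gave 0 calls among 10 tested in SKBR3, a count near the share over all genes (6.60% higher and 3.82% lower), with 1 lower at an unadjusted p under 0.05 and 0 calls by DESeq2. In MDA-MB-453, 1 of 8 tested rose and 0 fell, against 1.29% and 0.208% of all genes. At an unadjusted p under 0.05, 1 was higher and 2 lower there, and DESeq2 called 1 higher and 0 lower. The gene called was the decoy receptor gene BAMBI, which rose from 35.4, 33.6 and 35.6 CPM to 43.1, 40 and 40.6 CPM (log2 fold change 0.24, adjusted p = 0.0263). Its call was lost without untreated 2, untreated 3 or TWEAK 3 and in the fit of all 12 libraries (adjusted p = 0.223). Among 9 SMADs and partners in SKBR3, 1 was called higher and 0 lower, near the share over all genes (6.60% and 3.82%). This was the inhibitory SMAD6, which rose by 0.43 (adjusted p = 0.0129). In MDA-MB-453, 0 of 9 were called, near the share there (1.29% and 0.208%). In that line 2 were lower at an unadjusted p under 0.05, with 0 calls by DESeq2. SMAD2 and SMAD4, which act with SMAD3, were not called (log2 fold changes -0.03 and 0.14 in SKBR3, 0.00 and -0.08 in MDA-MB-453). Among 11 genes of the activin and BMP branch in SKBR3, 1 was called higher and 2 lower, against 6.60% and 3.82% of all genes. The gene called higher was INHBA, a subunit of activin A, with 2, 3 and 5 reads untreated and 30, 41 and 37 reads with TWEAK. INHBA too passed the filter through the TWEAK libraries alone. BMP7 fell from 234, 232 and 244 CPM to 169, 195 and 168 CPM (log2 fold change -0.42, adjusted p = 0.00295). INHBB fell by 0.20 (adjusted p = 0.0712). Its call was lost with the replicate block, at a threshold of 0.05 and without any single library other than TWEAK 2. In MDA-MB-453, 0 of 7 tested genes of this branch were called, near the share over all genes. There 0 passed an unadjusted p of 0.05 and DESeq2 called 0.

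The pattern of FURIN and of THBS1 over the 12 libraries was set beside that of 11642 other genes expressed in both lines, after each line was centred on its own mean. The genes most like FURIN were TSC22D3 (Pearson's r = 0.98), TMEM63C (0.973), HR (0.971), ARSG (0.968) and MORC4 (0.965). Those most like THBS1 were OSBPL11 (0.983), MCC and HS6ST3 (both 0.975), EXTL2 (0.974) and FBN2 (0.973). The points share the treatment and the libraries, and the values are given as a description.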

How the data were processed

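Per the labels and the study's methods, the authors trimmed reads with Trimmomatic, mapped them to hg38 with STAR and deposited raw counts per gene from featureCounts. Tool versions, annotation release and strand setting are not given in the sources used here, and the methods name a directional RNA kit where the labels name a DNA kit. The deposited counts carry no normalisation; every column of counts belonged to 1 labelled sample, and 0 were left unmapped. The members and gene lists were chosen with earlier results of these data known. Of 62696 identifiers, 61918 matched GENCODE 44 with their version and 62672 without it. Each comparison was fitted over all genes with edgeR 4.0.16 in R 4.3.3 (filterByExpr, TMM, quasi-likelihood test, Benjamini-Hochberg, threshold 0.1, prior count 0.125), within a line for TWEAK and over 12 libraries for the interaction. Intervals are 95% from the fit. Methods state that cell line experiments were run independently on different days, but the labels do not tie numbers to days. From each list, called genes without overlap were named, at most 4 per list and line by fold change, with CPM of at least 1 for likeness. ITGAV, ITGB1, ITGB5, ITGB6, ID1, ID2, ID3, ADAM19, SMAD2, SMAD4 and the markers shown were added after their values were seen. A further target gene that the rule names is not reported here. Alternatives were other size factors, DESeq2 1.42.0, filters, thresholds, a replicate block, GC and length offsets, and leaving out libraries. The test was checked on simulated counts.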

Additional observations from a re-analysis of the deposited data

Results flagged for a closer look

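For the interaction of line and treatment, 3.37% of 17201 genes were called, beside 2 of the 10 members and 12 of 86 tested list genes. The genes named by the rule were picked for a call in a line, so their number is no measure of excess. Values are the log2 change with TWEAK in MDA-MB-453 after subtracting the SKBR3 change. Among the members and the genes named by the rule, 8 changed by different amounts in the 2 lines by the edgeR test of the interaction. Of the members these were TGFBR1 (0.56, adjusted p = 0.0173), which fell in SKBR3 with non-overlapping groups and overlapped in MDA-MB-453, and FURIN (0.44, adjusted p = 0.00386), which fell in both lines. Of the other pathway genes, CDKN2B (-1.52, adjusted p = 2.95e-05), TGIF2 (-0.66, adjusted p = 4.28e-04), PMEPA1 (-0.60, adjusted p = 3.49e-05) and SMAD6 (-0.47, adjusted p = 0.029) rose in SKBR3, and of these only TGIF2 was called in MDA-MB-453. ITGAV (-0.61, adjusted p = 0.0469) and ID3 (-0.61, adjusted p = 9.96e-04), named after their values were seen, were also called. FN1 (0.86, adjusted p = 0.0676) rose in MDA-MB-453, and INHBB (0.22, adjusted p = 0.0929) fell in SKBR3. TGFBR1, FURIN, CDKN2B, TGIF2 and PMEPA1 were called in all 21 alternatives, SMAD6 in 19, FN1 in 14 and INHBB in 7.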

How the results depend on the processing

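Of the member calls in SKBR3, those of FURIN, THBS1 and TGFBR1 held in all 15 alternatives. Leaving out 1 library at a time gave 0 to 2 members higher and 3 to 4 lower in SKBR3, with 686 to 1589 genes higher and 240 to 1191 lower, and 20 to 27 other pathway genes higher and 1 to 9 lower. In MDA-MB-453 it gave 0 members higher and 0 to 2 lower, 120 to 1003 genes higher and 10 to 1098 lower, and 2 to 4 pathway genes higher and 0 to 10 lower. The highest gene counts came without TWEAK library 2 (1589 and 1191 in SKBR3, 1003 and 1098 in MDA-MB-453). For the interaction it gave 2 to 3 members higher and 0 to 1 lower, with 90 to 505 and 304 to 645 genes, and for the untreated lines 3 and 7 members, with 6921 to 7076 and 7357 to 7465 genes.

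In SKBR3, genes lower numbered 1068 in the fit of all 12 libraries, 1130 with GC and length offsets and 363 at a threshold of 0.05, where 1 member was higher and 2 pathway genes lower. In MDA-MB-453, genes higher and lower numbered 302 and 178 without a filter (3 pathway genes lower); genes lower numbered 13 in the fit of 12 libraries (1 member lower), 17 at 0.05 and 75 with GC and length offsets. For the interaction, genes higher numbered 95 at 0.05 and 408 with GC and length offsets (4 members higher), and without both TWEAK libraries numbered 2 they numbered 964, with 1113 lower and 1 member lower. With at least 10 counts in every library, 4 members were lower in untreated MDA-MB-453, since fewer were tested.

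The replicate numbers were not taken to pair samples, since deviations of same-numbered libraries did not all correlate above 0.1 (0.171, -0.146 and -0.237 in SKBR3, 0.127, 0.13 and 0.0234 in MDA-MB-453). In MDA-MB-453 every library correlated best with its own number, with at most 0.0151 across numbers, a hint from the data and not from the design. With the replicate block, SKBR3 had 1 member higher and 387 genes lower, and SMAD3, SMURF1 and INHBB were not called (adjusted p = 0.15, 0.109 and 0.199). SMURF1 and INHBB were not called at 0.05 either. MDA-MB-453 had 490 genes higher and 404 lower (542 and 435 with GC and length offsets as well), and the interaction had 101 genes higher (361 with the offsets). THBS1 passed for the interaction under the block (adjusted p = 0.085).

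Some values that were not called changed sign between alternatives, again without a call. SKIL was at 0.00 in SKBR3 without a filter and with the replicate block, and at 0.00 in MDA-MB-453 with GC and length offsets, with and without the block. Leaving out libraries, SKIL ranged from -0.07 to 0.12 in SKBR3, -0.05 to 0.01 in MDA-MB-453 and -0.13 to 0.05 in the interaction, TGFBR2 from -0.11 to 0.09 in SKBR3 and -0.26 to 0.61 in the interaction, and TGFB1 from -0.15 to 0.32 and SMAD7 from -0.12 to 0.01 in MDA-MB-453. The causes were not tested. Depth limits TGFB1, and TGFB2 and TGFBR2 in MDA-MB-453.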
